A study of Gallus gallus with 12 samples.

Results

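Breast muscle of chickens fed a mineral-restricted diet with added phytase was compared with breast muscle of chickens fed a normal diet. The means compared come from 8 of the 12 arrays of the study, 4 labelled as the restricted diet plus phytase and 4 labelled as the normal diet. The phytase birds received a diet restricted in phosphorus and calcium to which the enzyme had been added, under the treatment name Phy1000, for which the labels give no unit and no kind of enzyme. The normal birds received the unrestricted diet. A further 4 arrays came from birds on the restricted diet without phytase, and their levels are given beside the others without a test. Their spread also enters the standard errors, intervals and p-values of the main test, which was fitted on all 12 arrays. All birds were Ross PM3 chickens sampled at day 36, and each array held RNA pooled from 4 birds, taken from Pectoralis major, the main flight muscle of the breast. The study set out to find muscle pathways that the diet may affect. How birds were put together into pools is not given in the labels, so every SD and p-value below describes the spread between these pools, which hides the spread between birds. In whole muscle, fewer cells of a type and less RNA per cell cannot be told apart.

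Phytate is the form in which plant seeds store phosphorus, an inositol ring that carries phosphate groups, and chickens digest it poorly. Phytase cuts the phosphate groups off one after another, which frees phosphate and the minerals that phytate binds and leaves inositol with fewer phosphates. Phosphate is part of ATP and phosphocreatine, the energy stores of muscle, and calcium released inside the fibre starts contraction. Chicken breast is built almost wholly of fast fibres that live on glycolysis and hold few mitochondria.

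Values are deposited log2 expression levels per transcript cluster, the array's unit for a gene. A difference is the phytase mean minus the normal mean on the log2 scale, so that 1 is a 2-fold difference and a positive value is higher with phytase. Here "with phytase" stands for the restricted diet plus phytase. These diets differ in both mineral restriction and phytase, which this comparison cannot tell apart. Of 20804 transcript clusters, 12482 had a mean level over the 12 arrays at or above the 40th percentile, which lay at 2.67, and were tested. None reached an adjusted p under 0.05 in limma with Benjamini-Hochberg adjustment, and the smallest adjusted p was 0.454. At an unadjusted p under 0.05 there were 539 transcript clusters, 4.32% of those tested, of which 262 were higher (2.10%) and 277 lower (2.22%) with phytase. A uniform spread of p-values would put about 624 there. With the 8 arrays of the 2 diets alone, 756 were there, 391 higher and 365 lower. The 539 became 327 without phytase replicate 2. The 262 higher became 168 without that pool and 412 without phytase replicate 4, and the 277 lower became 159 without phytase replicate 2. Standard errors of the differences had a median of 0.17. All 4 phytase pools lay above or below all 4 normal pools in 381 transcript clusters, 3.05% of those tested. Sizes were modest: 204 transcript clusters differed by more than 0.5 upward and 143 by more than 0.5 downward, with 32 and 22 beyond 1. Array medians ran from 4.28 to 4.35. The correlation of a phytase with a normal array ran from 0.9582 to 0.9772. Among phytase arrays it ran from 0.9637 to 0.9775, and among normal arrays from 0.9675 to 0.9806. Over all pairs of arrays, these included, it ran from 0.9352 to 0.9806. With 1 transcript cluster per gene, 7954 named genes were tested. Of these 309 had an unadjusted p under 0.05, 3.88%, with 2.21% higher and 1.67% lower. The difference was above 0 for 52.1% of the genes and below 0 for 47.4%, with a median of 0.01. Every gene named below had an adjusted p between 0.979 and 1 in limma, so none passed, and the values that follow describe these pools. The skeletal muscle label fitted the markers: ACTA1, the actin of skeletal muscle fibres, stood at 13.60 ± 0.01 in phytase pools and 13.60 ± 0.04 in normal pools (SD, n = 4).

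The genes of mitochondrial respiration were lower with phytase almost without exception, by small amounts. Of 51 tested genes that encode subunits of the respiratory chain and ATP synthase, 49 were lower and 2 higher with phytase, with a median difference of -0.20, while 47.4% of all tested genes were lower. Unadjusted p was under 0.05 for 6 of the 51, all lower, where 1.67% of all genes were lower at that p, and all phytase pools lay below all normal pools for 4 of the 51, where the background over all genes was 1.42%. Complex I, which takes electrons from NADH, had 25 of 26 members lower, with a median of -0.21. All 3 members of complex II and all 5 of complex III were lower, with medians of -0.17 and -0.19. Complex IV, which hands electrons to oxygen, had 7 of 8 lower and a median of -0.15. All 9 members of ATP synthase were lower, with a median of -0.21.

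NDUFB2, an accessory subunit of complex I, had 6.85, 6.60, 7.07 and 6.91 in the 4 phytase pools, against 7.18, 7.37, 7.13 and 7.24 in the 4 normal pools. The phytase pools were all below the normal pools, and the difference was -0.37 ± 0.13 (SE). NDUFB4, of the same complex, had 6.01, 6.08, 6.15 and 6.08 in phytase pools, against 6.22, 6.45, 6.56 and 6.58 in normal pools. The groups again did not overlap, at a difference of -0.37 ± 0.16 (SE). UQCRFS1, the iron-sulfur protein of complex III, was at 6.88 ± 0.29 in phytase pools and 7.29 ± 0.26 in normal pools (SD, n = 4). Its difference was -0.41 ± 0.17 (SE), and phytase replicate 1 lay above normal replicates 1 and 2. COX7B, a small subunit of complex IV, had 8.82, 8.82, 8.58 and 8.72 in phytase pools, against 8.87, 8.95, 9.08 and 9.21 in normal pools, without overlap. ATP5I and ATP5H, subunits of the membrane part and the stalk of ATP synthase, differed by -0.30 ± 0.12 (SE) and -0.32 ± 0.14 (SE), and both overlapped in 1 or more pools. NDUFA4, the brightest gene of the list, was at 10.14 ± 0.05 in phytase pools and 10.29 ± 0.15 in normal pools (SD, n = 4).

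A score was taken for each pool as the mean, over the members of a list, of the level minus its mean over the 12 arrays. For the 51 respiratory genes it was -0.06, -0.18, -0.07 and -0.14 in the phytase pools, 0.09, 0.14, 0.06 and -0.18 in the restricted pools, and -0.08, 0.02, 0.14 and 0.25 in the normal pools. Normal replicate 1 lay within the range of the phytase pools, normal replicate 4 was the highest of all pools, and restricted replicate 4 and phytase replicate 2 were the lowest. Without normal replicate 4 the median difference of the list was -0.15, and without normal replicate 1 it was -0.27.

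**Figure D1:**
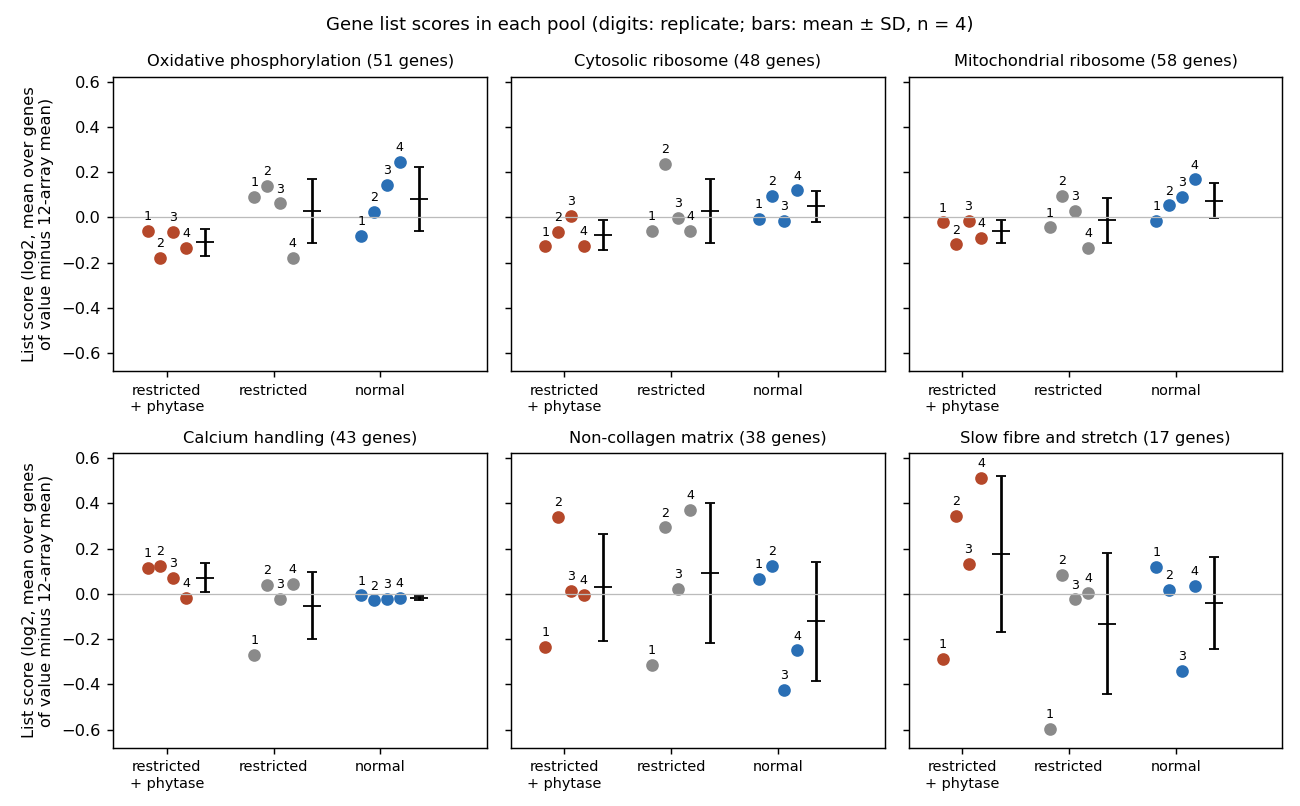
List scores on the log2 scale (mean over genes of the level minus its 12-array mean) for 6 gene lists in each pool, with digits for replicates and bars for the mean ± SD of 4 pools per diet. Respiratory scores of the phytase pools run from -0.18 to -0.06 and overlap the normal pools, calcium handling is nearly flat in the normal pools, and the matrix and slow fibre scores spread widely within each diet.

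Genes of pyruvate dehydrogenase and the citric acid cycle leaned lower with phytase, though not in all members. Of 18 genes of the pyruvate dehydrogenase complex and the citric acid cycle, 14 were lower and 4 higher with phytase, with a median of -0.12. Leaving out normal replicate 3 or phytase replicate 2 moved that median to -0.06, and leaving out normal replicate 1 moved it to -0.18. DLST, a subunit of the oxoglutarate dehydrogenase complex, had 6.94, 6.92, 6.98 and 6.94 in phytase pools, against 7.24, 7.08, 7.20 and 7.29 in normal pools. The 2 groups did not overlap, and the difference was -0.26 ± 0.10 (SE). PDHB, of pyruvate dehydrogenase, and SUCLG1, of succinyl-CoA ligase, differed by -0.35 ± 0.14 (SE) and -0.34 ± 0.15 (SE). PDP2, a phosphatase that switches pyruvate dehydrogenase on, was on the other side, with 3.64, 3.52, 3.57 and 3.69 in phytase pools, against 2.91, 3.33, 2.91 and 3.10 in normal pools. All phytase pools were above all normal pools, at a difference of 0.54 ± 0.17 (SE). Genes that drive the building of mitochondria were split, 9 higher and 11 lower of 20. Among them PPARGC1A, the coactivator that switches on respiratory genes, had 3.43, 3.28, 3.72 and 3.49 in phytase pools, against 2.83, 2.94, 3.31 and 3.24 in normal pools. It was 0.40 ± 0.15 (SE) higher with phytase, opposite in sign to the respiratory genes, with overlap in 1 phytase pool that lay under 1 normal pool.

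Ribosomal protein genes were also lower with phytase in nearly all members. For the cytosolic ribosome, 45 of 48 tested genes were lower and 2 higher, with a median of -0.12. Unadjusted p was under 0.05 for 4 of them, all lower, beside 1.67% over all genes. All phytase pools lay below all normal pools for 2 of the 48, beside 1.42% over all genes. The large subunit had 29 of 31 lower and the small subunit 16 of 17, with medians of -0.12 each. The score of the whole list was -0.1277, -0.0645, 0.0082 and -0.1272 in phytase pools, against -0.0047, 0.0959, -0.0158 and 0.1196 in normal pools. In restricted pools it was -0.0589, 0.2373, -0.002 and -0.0602. Phytase replicate 3 lay above normal replicates 1 and 3, so the groups overlapped. RPS2, a protein of the small subunit, had 10.11, 10.23, 10.22 and 10.33 in phytase pools, against 10.34, 10.51, 10.36 and 10.46 in normal pools. All of its phytase pools lay below the normal pools, with 0.01 between the nearest pools, and the difference was -0.20 ± 0.08 (SE). RPL13 of the large subunit differed by -0.28 ± 0.12 (SE), also without overlap, and RPL23A by -0.40 ± 0.17 (SE), with overlap. RPLP1, of the stalk of the large subunit, had 9.54, 9.53, 9.74 and 9.51 in phytase pools, against 9.59, 9.95, 9.78 and 9.96 in normal pools. The phytase pool at 9.74 stood above the lowest normal pool.

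For the mitochondrial ribosome, which makes the few proteins encoded by mitochondrial DNA, 52 of 58 tested genes were lower with phytase and 6 higher, with a median of -0.13. Its large and small subunits had 31 of 34 and 21 of 24 genes lower. The score of this list was -0.0217, -0.1188, -0.0157 and -0.0886 in phytase pools, against -0.0152, 0.0531, 0.0915 and 0.1681 in normal pools. In restricted pools it was -0.0436, 0.0952, 0.0305 and -0.1347. The highest phytase pool and the lowest normal pool were nearly equal. MRPL2 had 6.25, 6.02, 6.22 and 6.48 in phytase pools, against 6.53, 6.55, 6.53 and 6.54 in normal pools. MRPL50 had 5.81, 5.24, 5.78 and 5.69 in phytase pools, against 5.92, 5.95, 6.02 and 6.09 in normal pools. Neither overlapped, and the differences were -0.29 ± 0.13 (SE) and -0.36 ± 0.16 (SE). All phytase pools lay below all normal pools for 5 of the 58 genes, next to the 1.42% over all genes. Unadjusted p was under 0.05 for 2 of the 58, both lower, beside 1.67% over all genes. MRM1, which methylates the RNA of the mitochondrial ribosome and is not on that list, was on the opposite side. It had 3.36, 3.19, 3.23 and 3.39 in phytase pools, 3.56, 3.24, 3.50 and 3.27 in restricted pools, and 2.72, 2.74, 2.76 and 2.70 in normal pools. Its normal pools lay within 0.06 of each other and below every pool of both other diets, and the difference was 0.56 ± 0.12 (SE; unadjusted p = 0.000319, limma adjusted p = 0.979).

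Proteasome genes leaned the same way, with 21 of 27 lower, 6 higher and a median of -0.10, and none had an unadjusted p under 0.05. PSMC2, an ATPase of the regulatory cap, was at 7.62 ± 0.13 in phytase pools and 7.83 ± 0.09 in normal pools (SD, n = 4), without overlap. Translation factors were even, with 17 higher and 20 lower of 38 and a median of -0.01. Splicing genes were even as well, with 30 higher and 29 lower of 59.

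**Figure D2:**
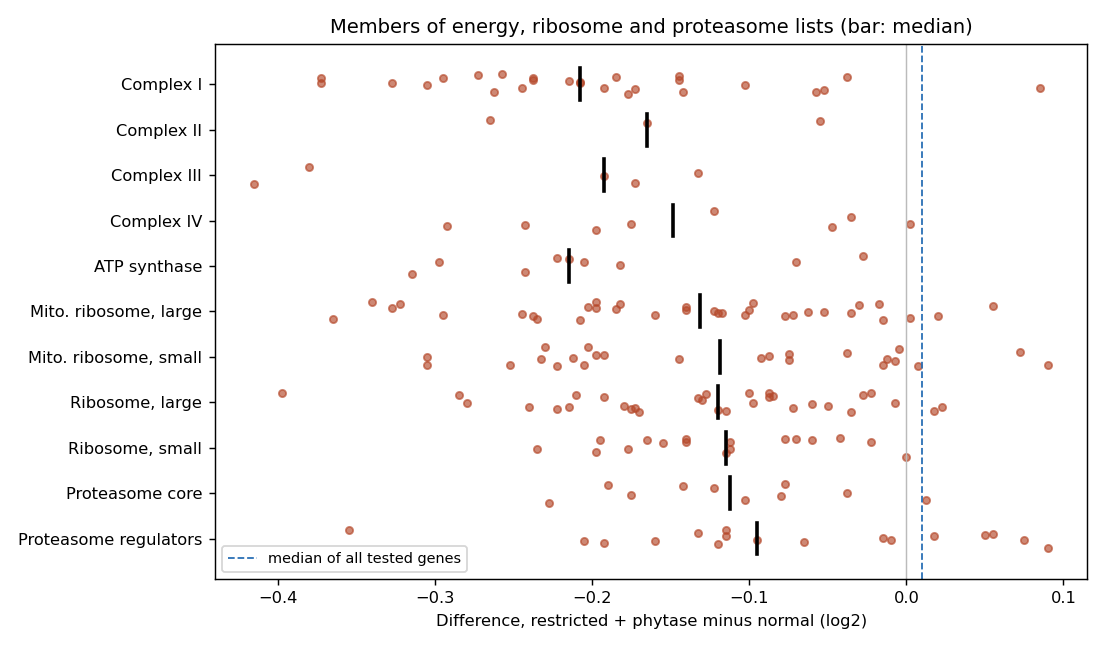
Difference of each member gene (restricted diet plus phytase minus normal diet, log2) in the complexes of respiration, both ribosomes and the proteasome, with 1 point per gene, a black bar at the median and a dashed line at the median of all tested genes, 0.01. Nearly all points lie left of 0, the medians run from -0.10 for the regulatory part of the proteasome to -0.21 for complex I and ATP synthase, and no gene passed the test.

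The respiratory list and both ribosomal lists hold many short genes, and gene length moved with the comparison as a whole. The span of a gene, from its start to its end on the chromosome, was known for 7648 of the 7954 tested genes from RefSeq's table for GRCg7b, and these were put into 5 bins of equal number by span. In the shortest bin, with a median span of 3169 bases, 61.6% of genes were lower with phytase and the median difference was -0.05. In the longest bin, with a median span of 88846 bases, 29.2% were lower, 70.3% higher, and the median was 0.10. The bins between ran in order, with medians of -0.03, 0.00 and 0.04. Taken pool by pool, the level of the longest minus the shortest bin was 0.147, 0.187, 0.083 and -0.011 in the phytase pools, -0.299, -0.085, 0.154 and -0.028 in the restricted pools, and -0.052, -0.110, 0.030 and 0.018 in the normal pools. Phytase replicates 1, 2 and 3 lay above every normal pool and phytase replicate 4 did not. These lists are set beside the gradient in the following ways. Their members are themselves part of the bins and of the adjustment, so the values cannot separate a list's shift from the gradient. Among genes of the shortest bin alone, 35 of 36 respiratory genes were lower with a median of -0.20, and the same bin over all genes had -0.05. There 37 of 40 cytosolic ribosomal genes were lower with a median of -0.12, and 24 of 29 mitochondrial ribosomal genes with a median of -0.14. Among genes that were both in the shortest bin and among the brightest genes, cut the same way by level, 70.4% were lower with a median of -0.09, against which the cytosolic ribosomal genes had -0.12 and the respiratory genes -0.20. When each array was adjusted for gene span, an alternative added after the gradient was seen, the medians became -0.14 for respiration, with 45 of 51 genes lower, -0.06 for the cytosolic ribosome, with 39 of 48, and -0.08 for the mitochondrial ribosome, with 46 of 58. What gives rise to the gradient was not tested.

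**Figure D3:**
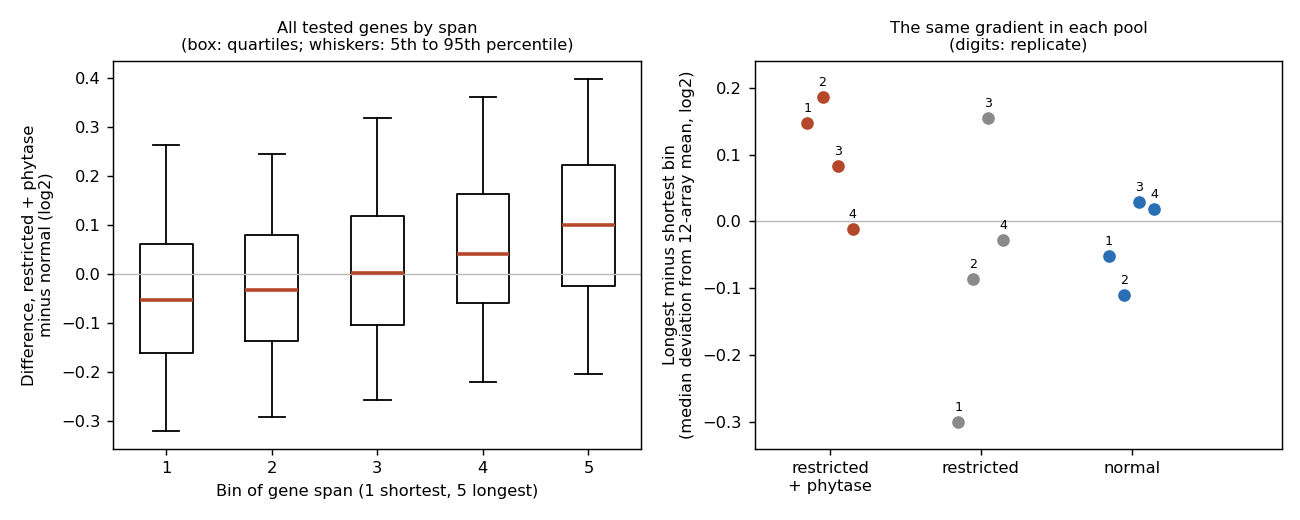
Left, differences of all tested genes (restricted diet plus phytase minus normal diet, log2) by bin of gene span, with boxes for quartiles and whiskers from the 5th to the 95th percentile. Right, the median deviation of the longest bin minus that of the shortest in each pool. The median difference runs from -0.05 in the shortest bin to 0.10 in the longest, and phytase replicate 4 (-0.011) lies among the normal pools.

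Genes for the giant proteins of the sarcomere leaned higher with phytase. Of 29 genes for giant and scaffold proteins of the sarcomere and the membrane, 21 were higher with phytase and 8 lower, with a median of 0.10. All 11 members in the longest bin of gene span were higher, at a median of 0.19. Over all genes of that bin 70.3% were higher, with a median of 0.10. The adjustment for span took the list's median to 0.04. Without normal replicate 2 it was 0.05. TTN, titin, the elastic spring of the sarcomere, had 11.99, 12.01, 11.96 and 11.86 in phytase pools, against 11.80, 11.58, 11.78 and 11.77 in normal pools. The phytase pools were all above the normal pools, with 0.06 between the nearest ones, and the difference was 0.22 ± 0.09 (SE). DMD, dystrophin, which ties the fibre's skeleton to its membrane, was at 7.58 ± 0.29 in phytase pools and 7.12 ± 0.08 in normal pools (SD, n = 4), with an equal level in 1 pool of each. DAG1, dystroglycan, to which dystrophin binds, differed by -0.24 ± 0.11 (SE).

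Genes of fast fibres were split, 6 higher and 9 lower of 16. ACTN2, an alpha-actinin that anchors actin at the Z disc, had 11.91, 11.86, 11.70 and 11.13 in phytase pools, against 11.45, 11.08, 11.50 and 11.61 in normal pools. Phytase replicates 1, 2 and 3 lay above every normal pool and phytase replicate 4 among them, at a difference of 0.24 ± 0.20 (SE). TNNI2, the fast troponin I, ran from 11.76 to 11.92 in phytase pools, against 11.93 to 12.02 in normal pools. The groups did not overlap, yet the difference was only -0.14 ± 0.06 (SE). MYH1D, one of the clustered fast myosin heavy chain genes of chicken, had 7.32, 8.78, 8.20 and 9.29 in phytase pools, against 8.15, 7.90, 6.33 and 7.47 in normal pools. Phytase replicate 1 fell inside the normal range and normal replicate 3 was the lowest, at a difference of 0.94 ± 0.44 (SE). The clustered myosin genes are close copies of each other, so the array's probes may not tell them apart. Among 17 genes of slow fibres and stretch, 12 were higher and 5 lower, with a median of 0.18 that was -0.0008 without normal replicate 3, 0.03 without phytase replicate 4, 0.10 without phytase replicate 2, 0.09 without phytase replicate 3 and 0.40 without phytase replicate 1. MYH15, a slow myosin heavy chain of birds, had 3.59, 5.73, 3.83 and 5.47 in phytase pools, against 4.20, 3.80, 2.81 and 3.82 in normal pools. TNNI1, the slow troponin I, had 4.73, 6.18, 5.64 and 7.03 in phytase pools, against 5.35, 5.61, 4.78 and 4.87 in normal pools. Both were high in phytase replicates 2 and 4, low in phytase replicate 1, and overlapped between the diets. TNNC1, the slow troponin C and the brightest gene of that list, was at 12.28 ± 0.06 in phytase pools and 12.29 ± 0.10 in normal pools (SD, n = 4). Myogenic regulators had 17 of 23 higher and a median of 0.14, which was 0.07 without phytase replicate 2, and none had an unadjusted p under 0.05.

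Calcium handling was higher with phytase in 29 of 43 genes and lower in 13, with a median of 0.11. Unadjusted p was under 0.05 for 3 of them, all higher, beside 2.21% over all genes. The calcineurin and calmodulin kinase branch, which relays the calcium signal to the nucleus, had 16 of 21 genes higher, and channels and stores had 13 of 22. PPP3CB, a catalytic subunit of calcineurin, had 5.85, 5.54, 5.51 and 5.13 in phytase pools, against 4.85, 4.81, 5.23 and 5.07 in normal pools. Phytase replicate 4 lay under normal replicate 3, the other phytase pools above every normal pool, and the difference was 0.52 ± 0.19 (SE). NFATC1, the transcription factor that calcineurin sends to the nucleus, differed by 0.33 ± 0.15 (SE), with overlap. ATP2B1, a calcium pump of the cell membrane, had 5.37, 5.18, 4.91 and 4.97 in phytase pools, against 4.79, 4.79, 4.79 and 4.51 in normal pools. Its groups did not overlap, at a difference of 0.39 ± 0.17 (SE). CASQ2, a calsequestrin that stores calcium and the brightest gene of the list, was at 11.75 ± 0.05 in phytase pools and 11.72 ± 0.07 in normal pools (SD, n = 4). In the longest bin of gene span 16 of 20 members were higher with a median of 0.17. Over all genes of that bin 70.3% were higher, with a median of 0.10. The list's median was 0.06 after the adjustment for span, 0.05 without phytase replicate 1 and 0.05 without phytase replicate 2.

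Genes of phosphate, calcium and vitamin D balance, the process closest to the diet, showed no common direction. Of 50 listed genes 38 were on the array and 29 were bright enough to test, of which 13 were higher and 16 lower with phytase, with a median of -0.01. It was -0.09 without phytase replicate 4. XPR1, which exports phosphate from cells, was at 7.94 ± 0.15 in phytase pools, 7.93 ± 0.11 in restricted pools and 7.92 ± 0.18 in normal pools (SD, n = 4). Its difference of 0.02 had a 95% interval from -0.24 to 0.28 in limma, without adjustment for the number of genes. SLC20A2, a sodium-phosphate importer, differed by 0.08, with an interval from -0.24 to 0.41. SLC20A1, the related importer, had 2.74, 3.27, 2.70 and 3.21 in phytase pools, against 2.96, 3.18, 2.97 and 3.65 in normal pools, close to the filter's limit and with overlapping groups. SLC25A3, which carries phosphate into mitochondria, differed by -0.21 ± 0.12 (SE). FGFR1, a receptor through which FGF hormones control phosphate in mammals, differed by -0.30 ± 0.15 (SE). CYP24A1, which breaks down active vitamin D, had 3.46, 2.83, 2.60 and 2.70 in phytase pools, against 2.66, 2.18, 2.74 and 2.41 in normal pools. Phytase replicate 1 was the highest, the normal mean of 2.50 lay below the filter's limit, and the groups overlapped. ALPL, alkaline phosphatase, was at 3.65 ± 0.09 in phytase pools and 3.61 ± 0.53 in normal pools (SD, n = 4). ATP2B1 was the 1 gene of the 29 with an unadjusted p under 0.05, beside 3.88% over all genes.

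Inside the cell, inositol phosphates are made and taken apart by kinases and phosphatases of their own. Of 36 tested genes 20 were higher and 16 lower with phytase, with a median of 0.04, and unadjusted p was under 0.05 for 1 in each direction, beside 2.21% higher and 1.67% lower over all genes. That median ran from 0.02 without normal replicate 2 to 0.10 without phytase replicate 2, and it was 0.01 after the adjustment for span. All phytase pools lay above all normal pools for 3 of them, INPP5K, INPP4A and PLCE1, and below for 1, INPP5B, while the backgrounds over all genes were 1.79% above and 1.42% below. INPP5K, a phosphatase of inositol lipids found in skeletal muscle, had 3.84, 3.88, 3.88 and 3.88 in phytase pools, 3.10, 3.32, 3.50 and 3.18 in restricted pools, and 3.68, 3.60, 3.05 and 3.48 in normal pools. The 4 phytase pools lay within 0.04 of each other and above every pool of both other diets, and the difference was 0.42 ± 0.15 (SE). INPP5B, which removes the same phosphate group, had 4.31, 4.16, 4.22 and 4.14 in phytase pools, against 4.60, 4.46, 4.72 and 4.33 in normal pools. Its groups did not overlap, and its sign was opposite, at -0.32 ± 0.15 (SE).

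The enzymes that make or degrade phytate's own compound in animal cells did not stand out. IPPK, the kinase that makes it, had 3.56, 2.93, 3.20 and 2.86 in phytase pools, against 3.33, 2.84, 3.28 and 3.13 in normal pools, a difference of -0.01 with an interval from -0.36 to 0.35. MINPP1, the animal phosphatase that removes its phosphates, differed by -0.07, with an interval from -0.51 to 0.36. IP6K3, the muscle form of the kinases that add a further phosphate, differed by -0.07, from -0.39 to 0.24, and IP6K1 and IP6K2 by -0.18 and 0.15. PPIP5K1 and PPIP5K2, which act after them, differed by 0.27 and 0.14. ITPK1, which works at an early step, differed by 0.33 ± 0.17 (SE), and IPMK, at the branch point, by 0.05 ± 0.21 (SE). IMPA1 and IMPA2, the phosphatases that release free inositol, differed by -0.29 and -0.04. All of these intervals held 0, and they were wide, that of IMPA1 reaching -0.74.

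**Figure D4:**
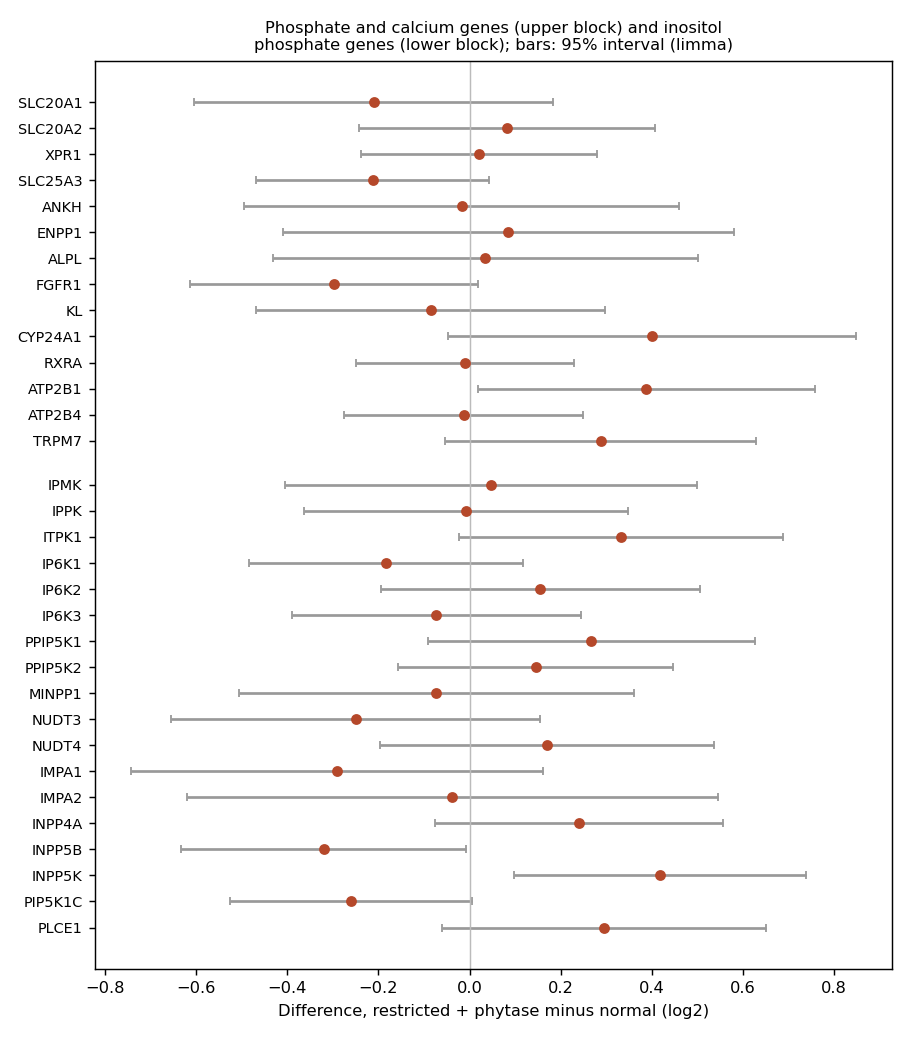
Differences (restricted diet plus phytase minus normal diet, log2) with 95% intervals from limma, unadjusted for the number of genes, for genes of phosphate and calcium balance (upper block) and of inositol phosphates (lower block). ATP2B1 (0.39) and INPP5K (0.42) lie right of 0 and INPP5B (-0.32) left of it with their intervals, and the intervals of the others include 0.

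Connective tissue genes were higher with phytase in most members, with wide spread among pools. Non-collagen matrix genes had 29 of 38 higher, 9 lower and a median of 0.13, and none had an unadjusted p under 0.05. Their score was -0.23, 0.34, 0.01 and -0.01 in phytase pools, -0.31, 0.29, 0.02 and 0.37 in restricted pools, and 0.07, 0.12, -0.43 and -0.25 in normal pools. Phytase replicate 2 was high, phytase replicate 1 low, and the groups overlapped. The median was 0.04 without phytase replicate 2, 0.06 without normal replicate 3, 0.21 without phytase replicate 1, 0.21 without normal replicate 1 and 0.24 without normal replicate 2. Collagens and their processing enzymes had 25 of 39 higher and a median of 0.04. COL1A1, the main fibrillar collagen, had 11.68, 12.21, 11.71 and 11.99 in phytase pools, against 11.93, 12.11, 11.02 and 11.30 in normal pools, with overlap. COL8A1, a short-chain collagen, had 4.81, 5.36, 4.92 and 4.87 in phytase pools, against 4.83, 4.52, 4.33 and 4.20 in normal pools, and differed by 0.52 ± 0.21 (SE), with overlap in 1 pool of each diet. TIMP3, which blocks matrix proteases, had 6.69, 6.76, 6.40 and 6.38 in phytase pools, against 6.23, 6.16, 5.75 and 6.04 in normal pools. All of its phytase pools lay above the normal pools, at a difference of 0.51 ± 0.19 (SE). PDGFD, a growth factor for fibroblasts and vessel wall cells, was at 4.80 ± 0.37 in phytase pools and 4.24 ± 0.10 in normal pools (SD, n = 4), without overlap, and phytase replicate 2 was again the highest at 5.31.

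SULF2, an enzyme outside the cell that trims sulfate from heparan sulfate, had 3.60, 3.96, 3.70 and 3.87 in phytase pools, 3.31, 3.35, 3.86 and 3.41 in restricted pools, and 3.22, 3.25, 3.25 and 3.17 in normal pools. The normal pools lay within 0.08 of each other and below all phytase pools, at a difference of 0.56 ± 0.14 (SE). The other heparan sulfate genes gave no common direction, with 9 of 22 higher in all. Of 38 genes of Wnt signalling 21 were higher and 17 lower, with a median of 0.02, and 4 had an unadjusted p under 0.05, all higher, beside 2.21% over all genes. ROR2, a receptor for Wnt ligands, had 3.71, 3.78, 3.44 and 3.73 in phytase pools, against 3.02, 2.94, 3.43 and 2.94 in normal pools. The nearest pools of the 2 diets were 0.01 apart, and normal replicate 3 stood far above the other normal pools. DKK3, a secreted protein of the Dickkopf family, had 4.85, 5.61, 4.94 and 5.17 in phytase pools, against 4.60, 4.70, 4.32 and 4.67 in normal pools. PRICKLE1, of the planar polarity branch, and LGR4, a receptor for R-spondins, differed by 0.56 ± 0.18 (SE) and 0.37 ± 0.16 (SE). CTNNB1, beta-catenin, the pathway's centre, was at 6.75 ± 0.07 in phytase pools and 6.75 ± 0.06 in normal pools (SD, n = 4).

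Growth and energy-sensing genes were even as a list, 18 higher and 17 lower of 35, with 2 at an unadjusted p under 0.05, both lower, beside 1.67% over all genes. These were PRKAB1 and PRKAB2, beta subunits of AMPK, the kinase that senses low ATP. PRKAB1 had 4.54, 4.55, 4.39 and 3.96 in phytase pools, 4.29, 4.51, 3.97 and 4.65 in restricted pools, and 4.90, 4.58, 4.92 and 4.99 in normal pools. It did not overlap between phytase and normal pools, at -0.49 ± 0.18 (SE). PRKAB2, the muscle form, had 9.09, 8.74, 8.63 and 8.78 in phytase pools, against 8.96, 9.06, 9.13 and 9.18 in normal pools, with phytase replicate 1 inside the normal range, and its second, dimmer transcript cluster differed by -0.18. ULK1, the kinase through which AMPK and mTOR control the start of autophagy, had 5.69, 5.54, 5.33 and 5.66 in phytase pools, against 5.76, 6.03, 6.27 and 5.96 in normal pools. The phytase pools were all below the normal pools, at -0.45 ± 0.18 (SE). IGF1 was at 3.74 ± 0.50 in phytase pools and 3.31 ± 0.44 in normal pools (SD, n = 4). CDC34, a ubiquitin-conjugating enzyme, had 5.58, 5.31, 5.38 and 5.63 in phytase pools, against 5.99, 5.87, 6.25 and 5.82 in normal pools, and differed by -0.51 ± 0.16 (SE). Genes of muscle wasting were split evenly, 10 and 10 of 20, and TRIM63, a ubiquitin ligase of wasting muscle, differed by -0.14 ± 0.11 (SE).

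Sugar and fat use gave single genes rather than a pattern. Glycolysis and glycogen genes had 21 of 30 lower, with a median of -0.05. PHKG1 and PHKA1, subunits of the kinase that switches on glycogen breakdown, differed by -0.41 ± 0.16 (SE) and -0.32 ± 0.13 (SE). Phytase replicate 2 was the lowest pool for both, at 8.98 and 9.08, and both overlapped. GAPDH was at 13.17 ± 0.04 in phytase pools and 13.22 ± 0.04 in normal pools (SD, n = 4). Fatty acid genes were split, 21 higher and 15 lower of 36. CD36, which takes fatty acids into the fibre, had 5.18, 4.98, 5.30 and 4.37 in phytase pools, 4.25, 4.39, 4.80 and 4.00 in restricted pools, and 4.13, 4.48, 4.12 and 4.23 in normal pools. Phytase replicates 1, 2 and 3 lay above every normal pool, phytase replicate 4 among them, and the difference was 0.72 ± 0.21 (SE).

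Iron and heme genes had 9 higher and 10 lower of 19. ALAD, the second enzyme of heme synthesis, had 4.48, 4.61, 4.18 and 4.40 in phytase pools, 5.03, 4.93, 4.70 and 4.67 in restricted pools, and 4.85, 5.14, 5.14 and 4.81 in normal pools. The phytase pools lay below every pool of both other diets, at -0.57 ± 0.15 (SE), but a second, dimmer transcript cluster of ALAD differed by -0.06. SLC11A2, an iron importer, had 4.09, 4.06, 4.81 and 4.47 in phytase pools, against 4.99, 4.91, 5.04 and 4.80 in normal pools, at -0.58 ± 0.21 (SE). SLC40A1, ferroportin, the iron exporter, had 4.14, 4.43, 4.61 and 4.43 in phytase pools, against 4.08, 4.13, 3.77 and 4.08 in normal pools, at 0.39 ± 0.14 (SE). SLC40A1 did not overlap, and in SLC11A2 phytase replicate 3 lay just above the lowest normal pool. FTH1, the ferritin heavy chain, was at 10.49 ± 0.20 in phytase pools and 10.46 ± 0.28 in normal pools (SD, n = 4).

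The largest differences among genes whose pools did not overlap followed from a fixed rule, 12 in each direction. Those with higher levels in phytase pools were PQLC2 (0.69), ZMYND11 (0.68), VPS50 (0.68), SPATS2L (0.68), MTF2 (0.68), LRCH2 (0.62), IFNAR1 (0.61), SH3GL1 (0.60), ROR2 (0.58), DKK3 (0.57), MRM1 (0.56) and PDGFD (0.56). Those with lower levels were CCDC96 (-0.73), RASGRF1 (-0.63), KCNC1 (-0.63), GGACT (-0.60), ALAD (-0.57), FAM104A (-0.57), SBK2 (-0.52), CDC34 (-0.51), TRIM13 (-0.50), ZBTB42 (-0.49), MIR449C (-0.49) and PRKAB1 (-0.49). They were picked by their values in this comparison, so their size and their lack of overlap support nothing further. PQLC2, which exports cationic amino acids from lysosomes, had 6.25, 6.15, 6.39 and 6.25 in phytase pools, against 6.06, 5.09, 5.79 and 5.34 in normal pools, and the normal pools were the more variable. ZMYND11, a reader of histone marks on transcribed genes, had 5.39, 5.64, 5.26 and 4.99 in phytase pools, against 4.58, 4.65, 4.66 and 4.66 in normal pools. MTF2, a partner of the Polycomb repressive complex, had 4.21, 4.55, 4.05 and 3.92 in phytase pools, against 3.41, 3.65, 3.15 and 3.82 in normal pools. The nearest pools of the 2 diets were 0.33 apart for ZMYND11 and 0.10 apart for MTF2.

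IFNAR1, a chain of the type I interferon receptor, was at 4.20 ± 0.16 in phytase pools and 3.59 ± 0.24 in normal pools (SD, n = 4). SH3GL1, an endophilin of membrane uptake, was at 3.52 ± 0.15 in phytase pools, 3.63 ± 0.22 in restricted pools and 2.92 ± 0.23 in normal pools (SD, n = 4). VPS50, of endosome recycling, had a normal mean of 2.41, which is below the filter's limit. RASGRF1, an exchange factor that links calcium to Ras, had 3.58, 3.31, 3.28 and 3.66 in phytase pools, against 4.49, 4.22, 3.85 and 3.79 in normal pools. KCNC1, a voltage-gated potassium channel, had 3.19, 3.10, 3.28 and 3.28 in phytase pools, against 3.58, 3.52, 4.07 and 4.20 in normal pools. The phytase pools spread over 0.38 for RASGRF1 and 0.18 for KCNC1, and the normal pools over 0.70 and 0.68. SBK2, a kinase gene and the brightest of the 24, had 7.61, 7.41, 7.34 and 7.29 in phytase pools, against 7.85, 8.12, 7.88 and 7.88 in normal pools, and the restricted pools ran from 6.65 to 7.94. MIR449C is a microRNA gene, and its transcript cluster reads the gene's locus and not the mature microRNA. Of the 24 genes, 21 lay below a level of 6 in all 8 pools. Adding 16 to the linear values before taking log2, which damps dim signals, shrank 20 of the 24 differences by more than 1.5 times. Pools of the 24 do not overlap, so leaving out the arrays described next could not change a sign. All 24 kept their sign after the adjustment for gene span. They were picked for large differences, beside which the gradient over the span bins is small, so that check could hardly change a sign either.

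**Figure D5:**
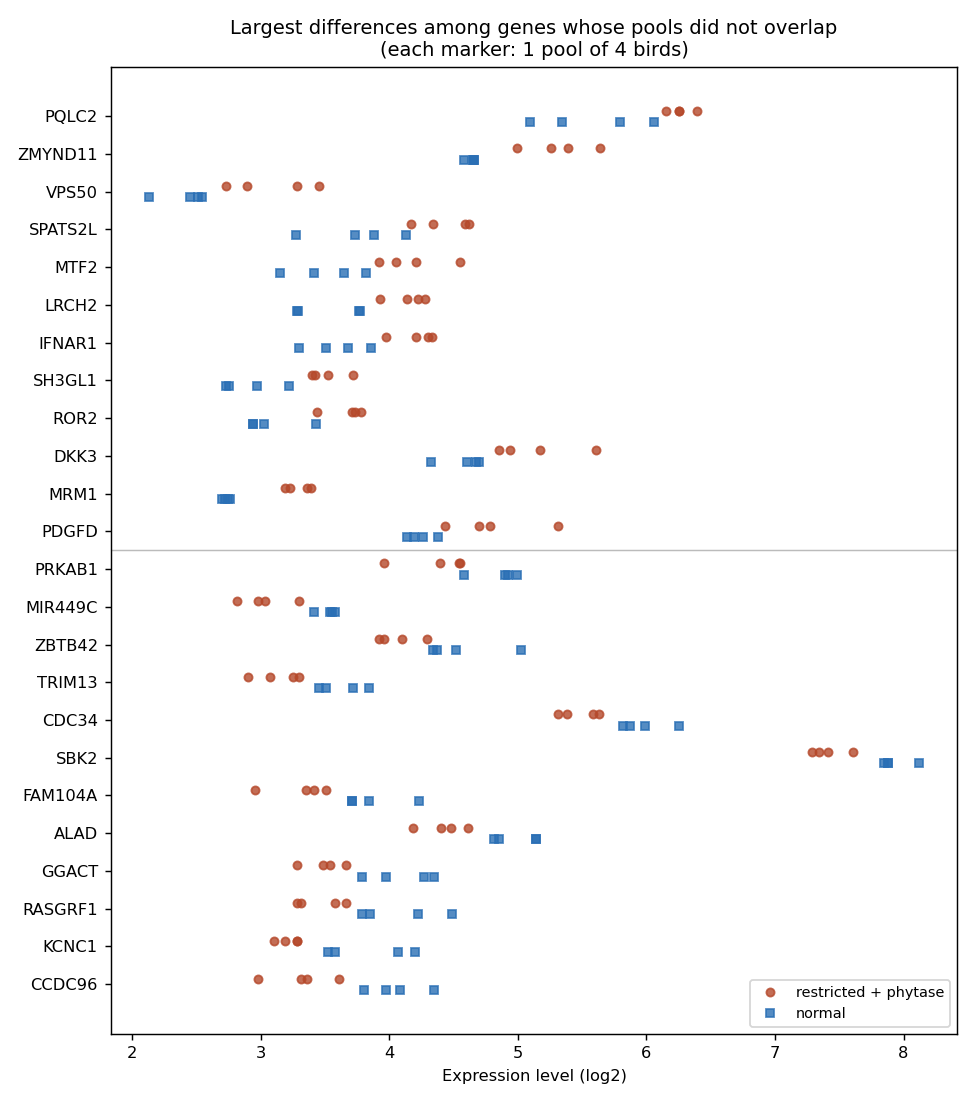
Levels (log2) of the 24 genes with the largest differences among genes whose pools did not overlap, 12 higher (upper block) and 12 lower (lower block) with phytase, with circles for the 4 pools of the restricted diet plus phytase and squares for the 4 normal pools. All pools lie below 6 for 21 genes, SBK2 is the brightest, and for 23 of the 24 the gap between the nearest pools of the 2 diets is smaller than the wider of the 2 spreads within a diet.

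The W-linked genes HINTW and ATP5F1AW, read from the chromosome that only female birds carry, separated pools within a diet. HINTW had 7.66, 2.69, 2.48 and 7.57 in phytase pools, 8.06, 8.08, 2.76 and 2.27 in restricted pools, and 2.70, 2.35, 2.34 and 2.32 in normal pools. It was thus high in phytase replicates 1 and 4 and in no normal pool. ATP5F1AW had 5.34, 4.23, 4.05 and 5.04 in phytase pools, against 4.30, 4.08, 4.12 and 4.29 in normal pools, higher in the same 2 phytase pools. The labels give no sex. Without the 4 arrays with HINTW signal, which leaves phytase replicates 2 and 3 against the 4 normal pools, 839 transcript clusters had an unadjusted p under 0.05 and none an adjusted p under 0.05 in limma. The median difference was then -0.20 for the respiratory genes with 47 of 51 lower, -0.15 for the mitochondrial ribosome with 49 of 58, and -0.08 for the cytosolic ribosome with 38 of 48. It was 0.30 for the non-collagen matrix with 32 of 38 higher and 0.08 for calcium handling with 28 of 43 higher. For the matrix score, phytase replicate 2 was the highest phytase pool and the omitted replicate 1 the lowest. Without replicate 2 alone the matrix median was 0.04.

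No marker of another cell type passed the test. Of 14 endothelial genes 10 were higher and 4 lower with phytase, with a median of 0.13 that was 0.06 without the arrays with HINTW signal. Their score was 0.11, 0.05, 0.06 and 0.02 in phytase pools, -0.04, -0.07, 0.16 and -0.03 in restricted pools, and -0.04, -0.04, -0.06 and -0.12 in normal pools, and the phytase pools were all above the normal pools. PECAM1 and KDR, an adhesion molecule and a VEGF receptor of vessels, differed by 0.50 ± 0.21 (SE) and 0.33 ± 0.15 (SE), and VWF, also of endothelium, by 0.10 ± 0.19 (SE). Differences over the 14 endothelial genes ran from -0.26 to 0.50. Macrophage and lymphocyte genes had 17 of 27 higher and a median of 0.07 that ran from -0.07 without normal replicate 3 to 0.16 without normal replicate 1, with scores from -0.27 to 0.11 in phytase pools and from -0.41 to 0.08 in normal pools. JCHAIN, made by antibody-secreting cells, had 5.94, 6.48, 6.65 and 7.17 in phytase pools, against 6.35, 5.88, 4.72 and 5.55 in normal pools, with overlap and a difference of 0.94 ± 0.43 (SE). This was the highest difference of the 27 genes, and the lowest was -0.315. In the vessel wall list 4 of 7 were higher and 3 lower. MYH11, smooth muscle myosin, differed by 0.70 ± 0.29 (SE), and TAGLN, an actin-binding protein of smooth muscle, by -0.32 ± 0.23 (SE). Adipocyte genes had 7 of 9 higher with a median of 0.05 that ran from -0.06 without normal replicate 3 to 0.19 without normal replicate 2. PLIN1, a coat protein of fat droplets, differed by 0.25 ± 0.19 (SE), and ADIPOQ, of the same list, by -0.06 ± 0.15 (SE). Differences over the 9 adipocyte genes ran from -0.1575 to 0.3425. Nerve and neuromuscular genes had 9 of 11 higher with a median of 0.12. It ran from 0.11 without phytase replicate 4 to 0.26 without phytase replicate 1, and was 0.05 with the offset of 16. Their scores overlapped, from -0.30 to 0.35 in phytase pools and from -0.35 to 0.05 in normal pools. CHRNG, the acetylcholine receptor subunit of immature muscle, had the highest difference of the 11, 0.67 ± 0.40 (SE), and the lowest was -0.235. Of satellite cell genes 3 of 4 were higher, and of cartilage, tendon and bone genes 3 of 6. The globins HBA1 and HBAD, from red cells left in the tissue, stood at 6.49 ± 0.35 and 7.75 ± 0.56 in phytase pools, 7.79 ± 0.68 and 8.92 ± 0.81 in restricted pools, and 6.31 ± 0.25 and 7.25 ± 0.19 in normal pools (SD, n = 4). The part that any of these cell types has in the differences above was not tested.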

How the data were processed

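Expression was measured on Affymetrix arrays from 100 ng of total RNA per pool, and per the labels' protocols 100 mg of breast muscle was kept. Deposited values are log2 levels per transcript cluster made by the authors. Tools named in the submitters' processing notes are GCRMA and Affymetrix Expression Console, without versions or roles. The logarithm's base is not given in the sources used here. A base of 2 was assumed, since values run from 0.83 to 14.36. The number of arrays limits the precision.

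Groups came from the labels. For normal replicate 1 no diet is listed among the characteristics, and the title was used. The main test was limma 3.58.1 (R 4.3.3), with 3 diet means on 12 arrays, an intensity trend and Benjamini-Hochberg adjustment. It was also run on simulated data in which genes varied independently, so that run does not cover shifts shared by many genes. Only transcript clusters with exactly 1 symbol in the platform annotation are named, 12300 of 20804, and the brightest one stood for its gene. Of these 11727 were found in RefSeq's table for GRCg7b, and 450 tested clusters held the same values as another. Nothing in the labels says that a replicate number pairs pools, and the main test used no pairing. Deviations of same-numbered phytase and normal pools had correlations from -0.1619 to 0.0603. These cannot show whether a number marks a shared block.

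The comparison, the 39 gene lists, the tests and the alternatives were chosen with earlier results of these data known. Where no gene passed, the rule named the 12 highest and 12 lowest differences among genes whose pools did not overlap, leaving out provisional LOC symbols. From each list it took up to 6 members with the smallest unadjusted p and the brightest member. It also took genes of phosphate, inositol phosphates, other cell types and the W chromosome whatever their p. The text prints only a part of the genes taken from the lists. Alternatives were other filters, normalizations, priors and weights, 8 arrays alone, a replicate block, an offset of 16, a HINTW covariate, leaving out arrays, and an adjustment for gene span. Promoter sequences were not analysed here.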

Additional observations from a re-analysis of the deposited data

Results flagged for a closer look

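In 17 of 306 groups of 4 pools, 1 pool stood far from the other 3 by Dixon's ratio of gap to range, and chance alone marks about 1 group in 20. Among normal pools, replicate 3 was the high one for ROR2 at 3.43 and for IMPA1 at 3.76, and the low one for SLC40A1 at 3.77 and for the cell cycle score at -0.0661. Normal replicate 1 was low for ZMYND11 at 4.58 and LGR4 at 2.65, and highest for HINTW at 2.70, which is still a low level. Normal replicate 2 was high for SBK2 at 8.12 and low for TTN at 11.58, and normal replicate 4 was low for ATP2B1 at 4.51. Among phytase pools, replicate 3 was high for ATP5I at 8.24, RPLP1 at 9.74, IP6K2 at 3.88 and the fatty acid score at 0.21. Phytase replicate 1 was low for the macrophage and lymphocyte score at -0.27 and for INPP5K at 3.84, where the other 3 pools were all at 3.88. Phytase replicate 4 was low for IGF1 at 2.99.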

How the results depend on the processing

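No transcript cluster reached an adjusted p under 0.05 in any of 27 alternatives to the main limma test, and the smallest adjusted p of any transcript cluster over them was 0.0997. The 539 of 12482 transcript clusters at an unadjusted p under 0.05 became 882 of 20804 with no filter on level and 341 of 8325 with a filter at the 60th percentile. These filters change the number tested, so the counts alone cannot be compared. Over the same 12482 there were 756 with the 8 arrays of the 2 diets alone and 895 with array weights. There were 1029 with a HINTW covariate and 839 without the arrays with HINTW signal. Those higher with phytase, 262, became 152 of 8325 with the 60th percentile filter, 460 with array weights, 630 with the covariate and 518 without those arrays. Those lower, 277, became 491 of 20804 with no filter and 435 with array weights. The 381 of 12482 whose pools did not overlap became 599 of 20804 with no filter. Leaving out 1 array gave 327 to 687 in all, 168 to 412 higher and 159 to 370 lower, lowest without phytase replicate 2 each time. With the replicate block, which groups pools by number, there were 518. Medians of 17 of 38 lists, all within 0.18 of 0, turned sign when 1 array was left out. With the HINTW covariate the median was 0.23 for myogenic regulators, 0.05 for calcium handling and 0.08 for inositol phosphates. The median of the slow fibre list ran from -0.0008 to 0.40 with 1 array left out. ATP5F1AW was -0.21 with the covariate and -0.0575 without the HINTW arrays. It was the only reversal among the 98 named genes whose difference was at least its standard error. Of the other 17, 12 changed sign in 1 or more alternatives. The causes were not tested. The 98 were set apart by the size of their differences in these same arrays. Their few sign changes therefore follow largely from that choice and support nothing further. Respiratory and both ribosomal medians stayed below 0 in every alternative. At 4 pools per diet and a median standard error of 0.17, small differences cannot be separated from the spread of pools.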

Other observations

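Heat shock genes were split between the diets, and cell cycle genes leaned lower with phytase. Of 43 heat shock and chaperone genes 19 were higher and 24 lower with phytase, with a median of -0.01 and none at an unadjusted p under 0.05. HSPB8 and HSPB1, small heat shock proteins of muscle, were at 9.39 ± 0.12 and 10.18 ± 0.13 in phytase pools and 9.63 ± 0.06 and 10.39 ± 0.12 in normal pools (SD, n = 4). The pools of HSPB8 did not overlap. Of 27 immediate early genes 18 were higher and 9 lower, with a median of 0.05 that ran from -0.04 without normal replicate 3 to 0.14 without normal replicate 2. JUN, a transcription factor of that group, had 6.45, 6.14, 6.30 and 6.39 in phytase pools, against 5.90, 6.26, 5.87 and 6.11 in normal pools, with overlap. Of 29 cell cycle genes 20 were lower and 9 higher, with a median of -0.10. Their score was -0.09, -0.08, -0.03 and -0.10 in phytase pools, against 0.02, 0.04, -0.07 and 0.04 in normal pools, where normal replicate 3 lay among the phytase pools. That median was -0.06 without normal replicate 1, -0.04 with the offset of 16 and -0.04 with a HINTW covariate. CDKN1A, an inhibitor that halts the cycle, had 6.81, 6.34, 6.83 and 6.12 in phytase pools, against 6.88, 6.70, 7.13 and 7.06 in normal pools, a difference of -0.42 ± 0.19 (SE) with overlap.

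Of 31 autophagy and lysosome genes 14 were higher and 17 lower, and MAP1LC3B, a protein of the autophagosome membrane and the brightest of them, was at 9.38 ± 0.16 in phytase pools and 9.41 ± 0.13 in normal pools (SD, n = 4). Of 29 ion channel and transporter genes 19 were higher and 10 lower, with a median of 0.07 that was 0.03 without normal replicate 4. Of 21 matrix proteases and their inhibitors 15 were higher and 6 lower, with a median of 0.09 that was 0.26 with the HINTW covariate and 0.20 without the arrays with HINTW signal. MMP2, which degrades collagen, had 7.49, 8.40, 7.90 and 7.84 in phytase pools, against 7.65, 7.69, 7.28 and 7.31 in normal pools, and phytase replicate 2 was again the highest.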
